A study of Mus musculus and Rattus norvegicus with 32 samples.

Results

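Livers of male SD rats were profiled 18 h after a single oral dose of trichloroethylene (TCE), a chlorinated solvent, and the account here covers the 8 arrays of that experiment out of 32 in the series. The sample titles give the groups: 4 arrays from rats gavaged once with TCE at 1500 mg per kg body weight in corn oil, and 4 arrays from rats gavaged once with corn oil alone. All these rats were 8 weeks old, and every one had been gavaged with the oil. Arrays from rats given TCE or oil daily over 14 days (10 weeks old, 4 arrays each) and from male B6C3F1 mice, 8 weeks old, given 1 dose of TCE or oil (4 arrays each) served for comparison. The labels do not state that each array holds the liver of its own animal, so p-values reflect only how far these samples scatter, and that scatter may be technical.

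The liver oxidises most TCE through cytochrome P450 enzymes, chiefly CYP2E1, to chloral, which alcohol and aldehyde dehydrogenases and other reductases turn into trichloroethanol and trichloroacetic acid. A smaller flux is conjugated to glutathione by glutathione S-transferases. Reactive products of such solvents can activate NRF2, a transcription factor that raises genes for glutathione synthesis, aldehyde reduction and quinone reduction, while trichloroacetic acid activates PPARα, which raises genes of peroxisomal and microsomal fatty acid oxidation in rodents.

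The submitters' values are signals divided by the oil median of the same experiment (4 arrays), so every value below is a log2 ratio, oil arrays lie around 0 by construction, and no absolute level is known. The arrays measured 8740 probe sets that were not controls, with a median within-group SD of 0.46. Because values hold no level, the defining markers of hepatocytes could not be checked for presence. The 13 hepatocyte markers measured changed by a median of -0.20. The TCE arrays had a median log2 ratio of 0.055 to 0.154 over all probe sets and the oil arrays one of -0.039 to 0.023, 0.13 apart (two-sided exact permutation p = 0.0286, the smallest that 4 against 4 arrays allow). The median change of all probe sets was 0.14, and changes have to be read against that shift.

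A pair of arrays stood apart. TCE array 4 had a Gapdh control value (3′ end minus 5′ end) of 1.90. It was -0.66 to 0.10 on the other TCE arrays and -0.20 to 0.20 on the oil arrays. Both ends are ratios to their oil medians, so 1.90 is an excess over the oil arrays, and the 3′ to 5′ ratio itself is unknown. Such a relative excess can mark shortened transcripts, which was not tested. Between groups this measure differed by 0.30 (two-sided exact permutation p = 0.886). Oil array 3 carried transcripts of the exocrine pancreas. Of 26 digestive enzyme and acinar genes, 20 were highest on that array, where their median was 4.08, against 0.13 to 0.34 on the TCE arrays and -0.12 to 0.04 on the other oil arrays. Prss1, a trypsinogen, stood at 9.35 there and Cpa1, a carboxypeptidase, at 7.20. None of the 26 passed the test between TCE and oil. Without both arrays, all 43 named probe sets that passed kept their sign, as they must where the groups lie apart. Of these, 8 still passed: those of Gsta3 (its least noisy one), Akr7a3, Slc37a4, F10, Thoc2, Cast, Dedd and Mpv17l. Of all 150 probe sets that passed between TCE and oil, 88 still passed without oil array 3 alone and 24 without TCE array 4 alone. Without TCE array 1, which did not stand apart in these measures, 19 did. Why calls were lost was not tested.

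**Figure D1:**
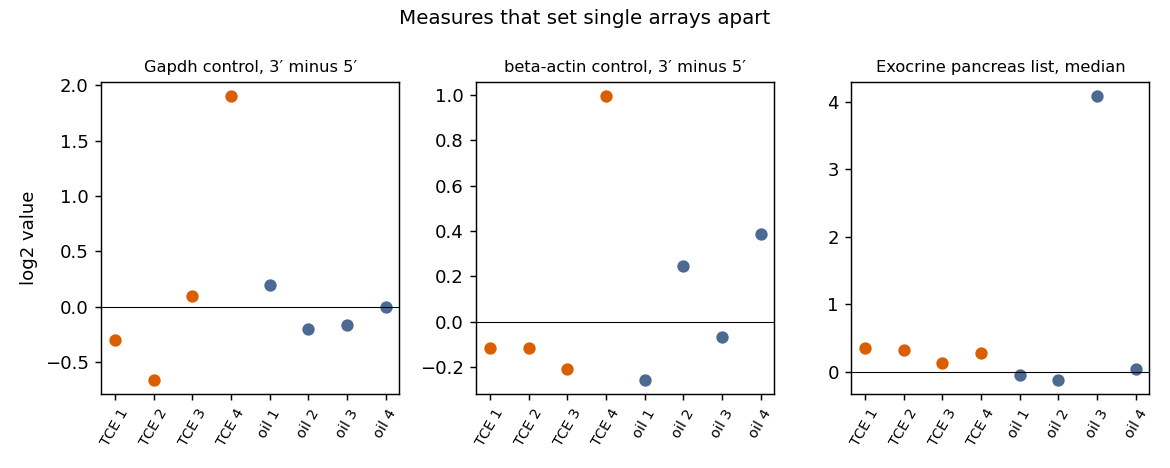
Log2 values of 3 measures on the 4 TCE and 4 corn oil arrays: the Gapdh and the beta-actin control value at the 3′ end minus that at the 5′ end, and the median of the exocrine pancreas genes. All are taken from ratios to the oil median. TCE array 4 is highest in both control measures (1.90 and 0.99), and oil array 3 is alone in the pancreas panel at 4.08.

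One dose of TCE raised an alpha class glutathione transferase, aldehyde-reducing and aldehyde-oxidising enzymes and the modifier subunit of glutathione synthesis. Single genes of mRNA export and signalling also rose, as did 3 of the 5 probe sets for the lipoprotein gene Apob. All 12 apolipoprotein and lipoprotein assembly genes, Apob among them, had a negative change by their probe set of smallest spread. The dose lowered single genes of glucose output (Slc37a4 and Pck1), amino acid metabolism (Glul, Bckdha and Ahcy) and short-chain fatty acid oxidation (Echs1 and Acads). At an adjusted p under 0.05 (limma, Benjamini-Hochberg over all probe sets), 150 of 8740 probe sets passed (1.72%), of which 106 were higher after TCE (1.21%) and 44 lower (0.503%). With each array centred on its own median the split turned to 77 higher and 107 lower. In 145 of the 150 the 4 TCE arrays lay wholly beyond the 4 oil arrays, which follows largely from the choice of the 150 on the same values (12.5% of all probe sets did so). Quantile normalization of the arrays left 2 probe sets, both for Gsta3.

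The count of 150 also rested on single arrays. Without TCE array 1 it was 22, without TCE array 4 it was 25, without oil array 4 it was 31, without oil array 2 it was 38 and without TCE array 2 it was 55. The 14-day arrays enter through the shared estimate of the spread, and without TCE array 1, 2 or 4 of that group the count was 78, 87 or 71. Without oil array 3 and TCE array 4 together it was 24, of which 18 were among the 150. All 150 kept their direction in each of these fits, but this was largely fixed in advance. In 145 of them the groups lay apart, so leaving out an array cannot turn the sign. The 14-day arrays do not enter the change itself. In all, 15 of the 150 passed whichever of the 8 single-dose arrays was left out.

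Gsta3, an alpha class glutathione S-transferase that conjugates electrophiles to glutathione, had the lowest adjusted p of any named gene. Its probe set with the smallest spread stood at 2.21, 2.40, 2.79 and 2.04 on the TCE arrays, against -0.26, -0.07, 0.55 and 0.07 on the oil arrays. The lowest TCE array was well above the highest oil array. The change was 2.29 ± 0.25 (log2 change ± SE, n = 4 and 4), a 4.88-fold rise, with a limma adjusted p of 0.000952. The adjusted p was 0.0224 with quantile normalization and at most 0.00642 with any array left out. The other Gsta3 probe sets rose by 2.66 and 2.74, so all 3 on the array passed. Of these, 2 have the suffix that Affymetrix gives to probe sets shared by similar transcripts, and related alpha class transcripts may add to the signal. Gsta1 and Gsta4, other alpha class members, changed by 0.08 and 0.09 (adjusted p = 0.792 and 0.809).

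Akr7a3, the aflatoxin aldehyde reductase, is the second gene of this kind. It stood at 1.77, 1.52, 1.96 and 2.16 on the TCE arrays, against 0.32, -0.04, -0.71 and 0.04 on the oil arrays. The groups were far apart, and the rise of 1.95 ± 0.24 (adjusted p = 0.00243) passed in all 8 fits that left out 1 array, though not with quantile normalization (0.266). Aldh1a1, a cytosolic aldehyde dehydrogenase, stood between 1.33 and 1.51 on the TCE arrays and between -0.94 and 0.54 on the oil arrays. Its rise was 1.55 ± 0.28 (adjusted p = 0.019, and 0.021 to 0.0597 without single arrays).

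The NRF2 targets other than glutathione transferases had the highest median of all 36 pathway lists, 0.57, against 0.12 over all 4736 genes, each taken by its probe set of smallest spread. Lists and members were chosen with earlier results of these data known, so this rank only describes them. At gene level 1.16% of all genes rose and 0.528% fell, shares to be set beside the count of every list below. Of the 18 NRF2 targets none fell and 3 rose: Akr7a3, Aldh1a1 and Gclm, the modifier subunit of glutamate-cysteine ligase. Gclm stood at 1.17, 0.51, 1.88 and 1.82 on the TCE arrays, against 0.33, -0.23, 0.20 and -0.40 on the oil arrays. The groups did not overlap, but the 1.37 ± 0.33 rise was close to the threshold (adjusted p = 0.0499, and 0.0649 after centring). It passed in 1 of the 8 fits that left out 1 array. Gclc, the catalytic subunit of the same enzyme, changed by 1.87 (adjusted p = 0.11) with all TCE arrays above all oil arrays. Nqo1, a quinone reductase, changed by 1.30 (adjusted p = 0.155), and TCE array 1 lay at -0.10, among the oil arrays. Hmox1, haem oxygenase and a classic NRF2 target, changed by -0.45 (adjusted p = 0.257). In all, 7 of the 18 had every TCE array above every oil array, against 417 of all 4736 genes (and 8.79% of all probe sets).

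The glutathione transferases did not move as a family. Of 15 measured genes 1 rose (Gsta3) and 1 fell (Gstt2), and their median change was -0.30. Gstt2, a theta class transferase, stood at -0.89, -1.12, -1.22 and -1.42 on the TCE arrays, against -0.70, 0.08, -0.08 and 0.09 on the oil arrays. Oil array 1 came close to the TCE arrays without overlap, and the fall was -1.01 ± 0.20 (adjusted p = 0.029). It passed in 3 of the 8 fits that left out 1 array. A further probe set for Gstt2 changed by -0.21 (adjusted p = 0.70). Mgst3, a microsomal member, changed by -1.01 (adjusted p = 0.0631), and the mu class gene Gstm1 by 0.04.

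**Figure D2:**
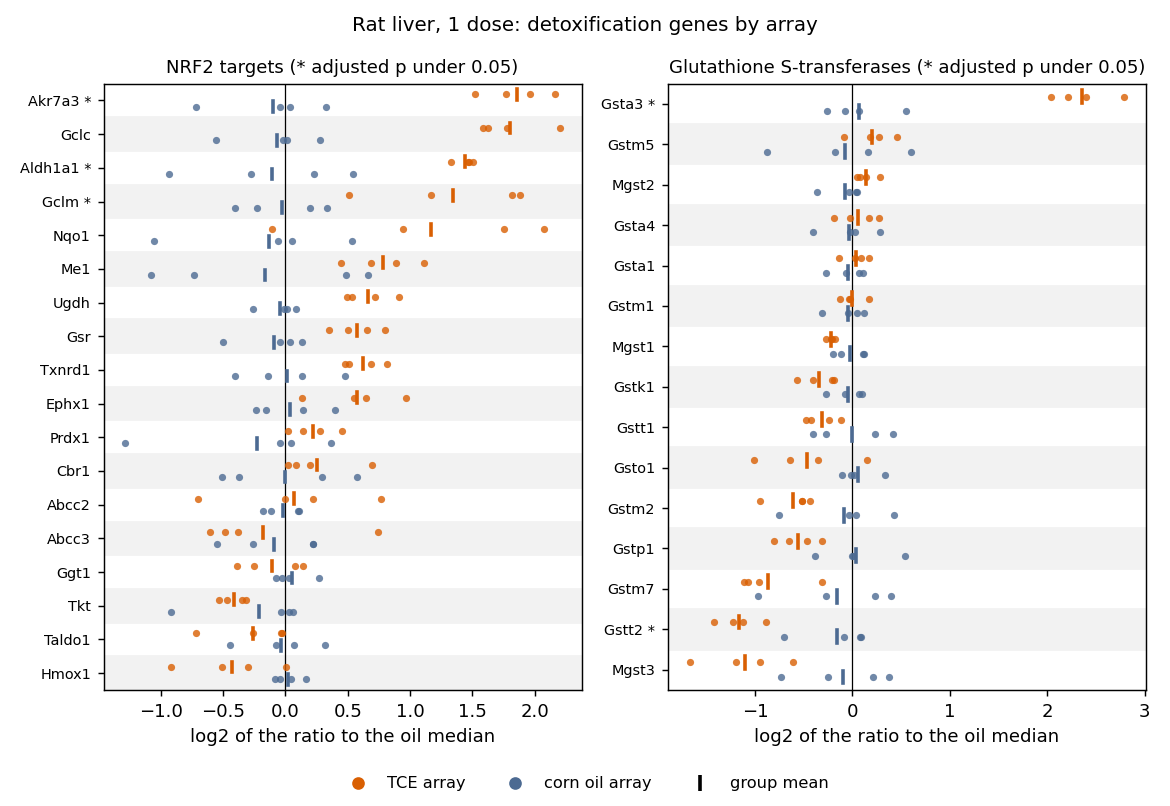
Log2 ratio to the oil median on each of the 4 TCE arrays (above) and 4 corn oil arrays (below) for 18 NRF2 targets and 15 glutathione S-transferases, with group means as bars and an asterisk for an adjusted p under 0.05. Gsta3, Akr7a3, Aldh1a1 and Gclm stand clear of their oil arrays, while most transferases lie around 0 or below.

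Among 20 enzymes that act on TCE, chloral or their products, Akr7a3 and Aldh1a1 rose, Gstt2 fell and the median was 0.11. Cyp2e1, the main oxidising P450, changed by -0.30 (adjusted p = 0.263), with all TCE arrays below all oil arrays on 1 of its 3 probe sets. Aldh2, the mitochondrial aldehyde dehydrogenase, changed by -0.52 (adjusted p = 0.164). Cyp2b2, a P450 of the phenobarbital type response, stood at 1.60, 0.86, 1.82 and 1.82 on the TCE arrays, against -0.11, 0.89, -0.11 and 0.10 on the oil arrays. Oil array 2 overlapped with TCE array 2, and the change of 1.33 ± 0.45 did not pass (adjusted p = 0.128). None of the 18 P450s responsive to the receptors CAR, PXR and AHR passed by its probe set of smallest spread. Cyp3a23-3a1 rose by 1.14 on 1 of its 4 probe sets (adjusted p = 0.0247) and changed by 0.57 or less on the others. This probe set was singled out after its values were seen.

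Genes of peroxisomal and microsomal fatty acid oxidation did not pass the test 18 h after 1 dose. Of 18 peroxisomal genes none rose or fell, and the median was 0.16, near the 0.12 of all genes and 0.03 after centring. Pex11a, a peroxisome division factor, stood at 1.05, 0.77, 0.71 and 0.85 on the TCE arrays, against -0.15, -0.04, 0.36 and 0.04 on the oil arrays. Acaa1b, the peroxisomal thiolase, stood at 1.15, 0.90, 0.79 and 1.43 on the TCE arrays, against 0.39, -0.10, 0.09 and -0.70 on the oil arrays. In both genes the groups were apart, with changes of 0.79 ± 0.20 (adjusted p = 0.0608) and 1.15 ± 0.30 (adjusted p = 0.0638). Ehhadh, the peroxisomal bifunctional enzyme, changed by less than 0.01 in size, and Cyp4a1, a fatty acid omega-hydroxylase, by 0.23 (adjusted p = 0.688). Of 10 omega-oxidation and thioesterase genes none passed, with a median of 0.11.

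In mitochondria, 2 short-chain enzymes of fatty acid oxidation fell, of 19 such genes measured, against 0.528% of all genes. The median of the 19 was 0.15. Echs1, the short-chain enoyl-CoA hydratase, stood at -1.24, -1.43, -1.45 and -1.58 on the TCE arrays, against -0.12, 0.12, -0.66 and 0.11 on the oil arrays. All TCE arrays were lower than the lowest oil array, and the fall was -1.29 ± 0.28 (adjusted p = 0.0409). Acads, the short-chain acyl-CoA dehydrogenase, fell by 1.02 ± 0.24 on the log2 scale (adjusted p = 0.0472). Each call was lost in 7 of the 8 fits that left out 1 array, with an adjusted p of up to 0.126 and 0.138. The carnitine transferases Cpt1a and Cpt2 changed by 0.44 and 0.15 (adjusted p = 0.46 and 0.733). Of 34 respiratory chain subunits 1 fell, Ndufb6 of complex I (-0.75 ± 0.17, adjusted p = 0.0466), against the same 0.528% of all genes. The list median was -0.29.

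A pair of genes for glucose output fell. Of 19 genes of gluconeogenesis, glycogen and glycolysis 2 fell and none rose, against 0.528% and 1.16% of all genes, with a median of -0.20. Slc37a4, the transporter that carries glucose 6-phosphate into the endoplasmic reticulum for glucose release, stood at -0.95, -1.28, -0.92 and -1.18 on the TCE arrays, against -0.12, 0.16, -0.39 and 0.11 on the oil arrays. Its fall of -1.02 ± 0.17 (adjusted p = 0.0154) passed in all 8 fits that left out 1 array, and its other probe set fell by 0.91. Pck1, the cytosolic phosphoenolpyruvate carboxykinase that commits carbon to gluconeogenesis, stood at -0.80, -1.25, -1.35 and -1.65 on the TCE arrays, against 0.01, -0.40, 0.96 and -0.01 on the oil arrays. The groups did not overlap, and the fall was -1.40 ± 0.33 (adjusted p = 0.048), but it passed in none of the 8 fits that left out 1 array (0.0669 to 0.117). Oil array 3 holds its highest value and TCE array 4 its lowest, and without both it did not pass (adjusted p = 0.134). Pc, pyruvate carboxylase, and Fbp1, fructose bisphosphatase, changed by -0.62 and -0.44 (adjusted p = 0.125 and 0.409) with every TCE array below every oil array.

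The list of amino acid catabolism and the urea cycle, one of the longest, held the most falls by count. Of its 37 genes 3 fell and 1 rose, while 0.528% of all genes fell and 1.16% rose. The lists of glucose genes and of mitochondrial fatty acid oxidation had 2 falls among 19 genes each. Of the 37 genes 29 had a negative change, and the median was -0.30. In 10 of them every TCE array lay below every oil array, against 195 of all 4736 genes (and 3.72% of all probe sets). After centring of the arrays 7 fell and 1 rose. Glul, glutamine synthetase of the hepatocytes around the central vein, stood at -0.90, -1.12, -1.23 and -1.86 on the TCE arrays, against -0.47, 0.20, 0.12 and -0.13 on the oil arrays. The fall of -1.21 ± 0.24 (adjusted p = 0.028) was the largest in size of the list, and the other 3 probe sets for Glul changed by -0.69 to -0.96 without passing. Bckdha, a subunit of the branched-chain keto acid dehydrogenase, fell by 0.95 ± 0.22 (adjusted p = 0.0466), and Ahcy, which hydrolyses S-adenosylhomocysteine, fell by 0.78 ± 0.18 (adjusted p = 0.0457). Amd1, which makes the decarboxylated S-adenosylmethionine used for polyamines, rose by 1.37 ± 0.29 (adjusted p = 0.0357). The urea cycle genes Cps1 and Otc changed by 0.02 and -0.13. Each of the 4 calls was lost in 6 or 7 of the 8 fits that left out 1 array, with an adjusted p of up to 0.126.

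By the probe set of smallest spread, the lists of cholesterol synthesis, lipoproteins and coagulation gave a single call, F10. None of 15 cholesterol synthesis genes passed, although 12 had a negative change and the median, -0.48, was the lowest of the pathway lists. Ebp, a sterol isomerase, came nearest with -0.88 ± 0.21 (adjusted p = 0.0541, and 0.041 after centring), and Msmo1, a methylsterol oxidase, changed by -1.06 (adjusted p = 0.131). All 12 apolipoprotein and lipoprotein assembly genes had a negative change by their probe set of smallest spread (median -0.36), and none passed, although 3 other probe sets for Apob did. Of 15 coagulation genes F10, coagulation factor X, fell. It stood between -1.26 and -0.83 on the TCE arrays and between -0.53 and 0.14 on the oil arrays, a change of -0.93 ± 0.18 (adjusted p = 0.0232), and its second probe set did not pass (adjusted p = 0.0962). Of 11 Kupffer cell and macrophage markers 9 had a negative change (median -0.45), with array medians of -0.59 to 0.07 after TCE and -0.24 to 0.23 after oil. Cd14, a macrophage receptor for lipopolysaccharide, changed by -1.05 (adjusted p = 0.0676). In bulk liver, fewer cells of a type and less RNA per cell cannot be told apart.

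Several lists gave no call by the probe set of smallest spread. Among 16 other hepatic P450s, 6 had every TCE array below every oil array, against 195 of all 4736 genes (and 3.72% of all probe sets). Cyp2d3 and Cyp2d4, drug-metabolising P450s, came nearest to passing with -0.73 and -0.83 (adjusted p = 0.0567 and 0.0579). The 19 genes of endoplasmic reticulum chaperones and the ATF4 arm of the stress response had a median of -0.20, the 19 heat shock chaperones one of -0.02 and the 38 ribosomal protein genes one of -0.02. Of 27 immediate early genes Myc, the transcription factor of growth, changed by 1.79 (adjusted p = 0.0879). Of 28 nuclear receptors and cofactors Rarb, a retinoic acid receptor, changed by 2.51 and Nr5a2, a regulator of bile acid synthesis genes, by 2.81 (adjusted p = 0.0676 and 0.0789). The 27 lymphocyte and other leukocyte markers had a median of 0.21 and the 23 stellate cell and fibroblast markers one of -0.04.

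**Figure D3:**
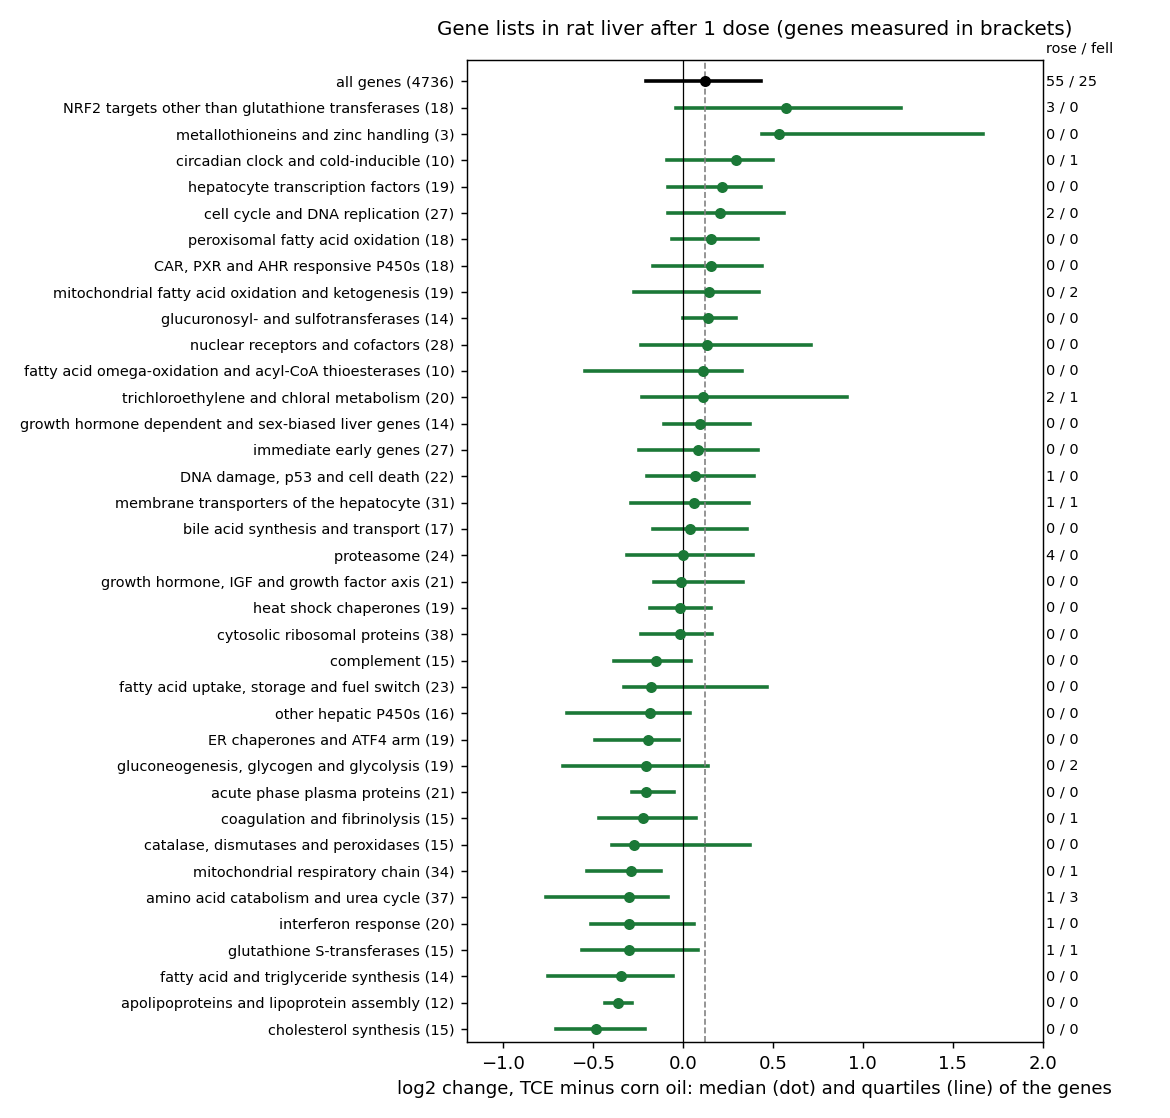
Median (dot) and quartiles (line) of the log2 change, TCE minus corn oil, for 36 pathway lists and for all 4736 genes, with the number of genes that rose and fell at an adjusted p under 0.05 at the right. The dashed line is the median of all genes, 0.12. The NRF2 targets lie highest at 0.57 and cholesterol synthesis lowest at -0.48.

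The proteasome degrades ubiquitin-tagged proteins, and some of its subunits rose. Of 24 proteasome genes 4 rose and none fell, against 1.16% and 0.528% of all genes, yet the median was -0.00 and -0.13 after centring. The 4 were Psma2, Psma1 and Psma4 of the alpha ring and Psmd1 of the regulatory cap. Psma2 stood at 0.99, 0.70, 1.04 and 1.01 on the TCE arrays, against 0.24, 0.10, -0.10 and -0.40 on the oil arrays, a rise of 0.98 ± 0.18 (adjusted p = 0.0181). Psmd1 rose by 1.05 ± 0.21 (adjusted p = 0.024), although its other 3 probe sets changed by 0.57, 0.20 and -0.67. Psma1 and Psma4 rose by 0.87 and 0.70 and no longer passed after centring (adjusted p = 0.0664 and 0.0712). Of the 8 fits that left out 1 array, Psma2 and Psmd1 passed in 5 each, Psma4 in 1 and Psma1 in none. The inducible subunits Psmb8 and Psmb9 changed by -0.32 and -0.54 (adjusted p = 0.54 and 0.36).

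Growth and p53 genes gave few calls. Mdm2, the ubiquitin ligase that restrains p53, stood at 0.79, 1.21, 0.85 and 0.71 on the TCE arrays, against 0.20, -0.53, -0.05 and 0.05 on the oil arrays. The groups were apart and the rise was 0.97 ± 0.20 (adjusted p = 0.0343). A second of its 4 probe sets rose by 1.34 (adjusted p = 0.0472). It was the only one of 22 DNA damage and cell death genes to pass in this fit, and Cdkn1a and Gadd45a, p53 targets as well, each changed by 0.52 (adjusted p = 0.214 and 0.226). The other 3 Gadd45a probe sets changed by 0.79 to 1.74 without passing. Of 27 cell cycle genes Tyms, thymidylate synthase, rose by 1.34 ± 0.32, and Ccnd2, cyclin D2, by 1.18 ± 0.28 (adjusted p = 0.048 each). Both were lost after centring (adjusted p = 0.0584 and 0.0631), and the second Ccnd2 probe set changed by 0.11. Of the 8 fits that left out 1 array, Mdm2 passed in 3 by its probe set of smallest spread, Tyms in 1 and Ccnd2 in none. Pcna and Cdk1 changed by -0.01 and -0.14. Cxcl10, an interferon-induced chemokine, rose by 1.16 ± 0.27 (adjusted p = 0.048), but did not pass after centring (0.0584) or in any of the 8 fits that left out 1 array (0.0573 to 0.105). The median of the 20 interferon response genes was -0.30.

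Other calls within the lists were single genes. Cirbp, the cold-inducible RNA-binding protein, was the 1 call among 10 clock and cold-inducible genes. It stood at -1.39, -1.25, -1.22 and -2.16 on the TCE arrays, against -0.36, 0.09, -0.08 and 0.08 on the oil arrays, a fall of -1.44 ± 0.27 (adjusted p = 0.021). This call passed in 4 of the 8 fits that left out 1 array. Among 31 hepatocyte transporters Abcc6, an efflux transporter of the ABC family, fell by 0.91 ± 0.18 (adjusted p = 0.0247), and Slc16a7, a monocarboxylate transporter, rose by 1.33 ± 0.30 (adjusted p = 0.0423).

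The largest rises belonged mostly to genes not described so far. Apob, the structural protein of very low density lipoprotein, stood at 7.05, 7.50, 5.90 and 6.52 on the TCE arrays, against 0.33, -0.44, -1.05 and 2.13 on the oil arrays. The rise of 6.50 ± 1.05 was 90.2-fold (adjusted p = 0.0129) and passed in all 8 fits that left out 1 array. Of the 5 probe sets for Apob, however, 3 rose (by 6.50, 4.59 and 2.56) and the other two changed by 0.40 and -0.20, so the transcript as a whole did not show a single change. Thoc2, a subunit of the complex that couples transcription to mRNA export, stood at 5.35, 5.59, 4.49 and 1.69 on the TCE arrays, against 1.24, -0.27, -0.56 and 0.23 on the oil arrays. TCE array 4, the array with the high Gapdh value, was the lowest of its group, and the rise was 4.12 ± 0.88 (adjusted p = 0.0409, and 0.03 to 0.113 without single arrays).

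Dnm1l, the dynamin-like GTPase of mitochondrial and peroxisomal division, rose by 3.79 ± 0.69 (adjusted p = 0.0181) on 1 of its 4 probe sets. A second did not pass (adjusted p = 0.0533), although its groups did not overlap, and the other two changed by 0.62 and 0.24. Cast, calpastatin, the inhibitor of calpain proteases, rose by 3.20 ± 0.56 (adjusted p = 0.0181), and its probe set of smallest spread rose by 1.76. Epha3, an ephrin receptor kinase, stood at 3.20, 3.69, 2.61 and 2.97 on the TCE arrays, against 0.17, -0.20, 0.64 and -0.35 on the oil arrays, a rise of 3.05 ± 0.52 (adjusted p = 0.0171). Hspa13, a microsomal member of the HSP70 family, stood between 2.29 and 3.37 on the TCE arrays and between -0.66 and 0.88 on the oil arrays, a rise of 2.98 ± 0.52 (adjusted p = 0.0176). Homer1 and Homer2, scaffold proteins of calcium signalling, rose by 2.69 and 2.43, and Ddx42, an RNA helicase, by 2.37 (adjusted p = 0.0472, 0.021 and 0.0483). Of the 6 Homer1 probe sets 2 passed, and of the 3 for Homer2, 1.

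The largest fall was that of Dedd, a nuclear protein with a death effector domain. It stood at -3.10, -3.72, -3.07 and -4.35 on the TCE arrays, against -0.87, 0.72, -0.53 and 0.39 on the oil arrays. The gap between the groups exceeded their spread, and the fall of -3.49 ± 0.54 (adjusted p = 0.012) passed in all 8 fits that left out 1 array, while its second probe set changed by -0.80 (adjusted p = 0.28). Anp32a, a nuclear phosphoprotein that inhibits phosphatase 2A, fell by 2.57 ± 0.56 (adjusted p = 0.0409), and its other probe sets changed by 0.36 and 0.34. Mpv17l, a homologue of a mitochondrial and peroxisomal membrane protein, fell by 1.49 ± 0.26 (adjusted p = 0.0181). Sdc4, the heparan sulfate proteoglycan syndecan 4, fell by 1.49 and 1.34 on 2 of its 3 probe sets (adjusted p = 0.0466 and 0.0247). Tnxa-ps1, annotated as a tenascin pseudogene, Cd37, a leukocyte tetraspanin, and Fxyd1, a regulator of the sodium pump, fell by 1.38, 1.29 and 1.24 (adjusted p = 0.0409, 0.047 and 0.0409).

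These 20 genes, the 10 largest rises and 10 largest falls, were named by the probe set with the largest change. Of the 12 with several probe sets, 8 did not pass by the probe set of smallest spread (Apob, Dnm1l, Homer1, Homer2, Dedd, Anp32a, Sdc4 and Fxyd1). After centring 19 of the 20 passed, all but Ddx42, and with quantile normalization none did (adjusted p = 0.0836 for Dedd, the lowest). Apob and Dedd were the 2 that passed whichever of the 8 single-dose arrays was left out.

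**Figure D4:**
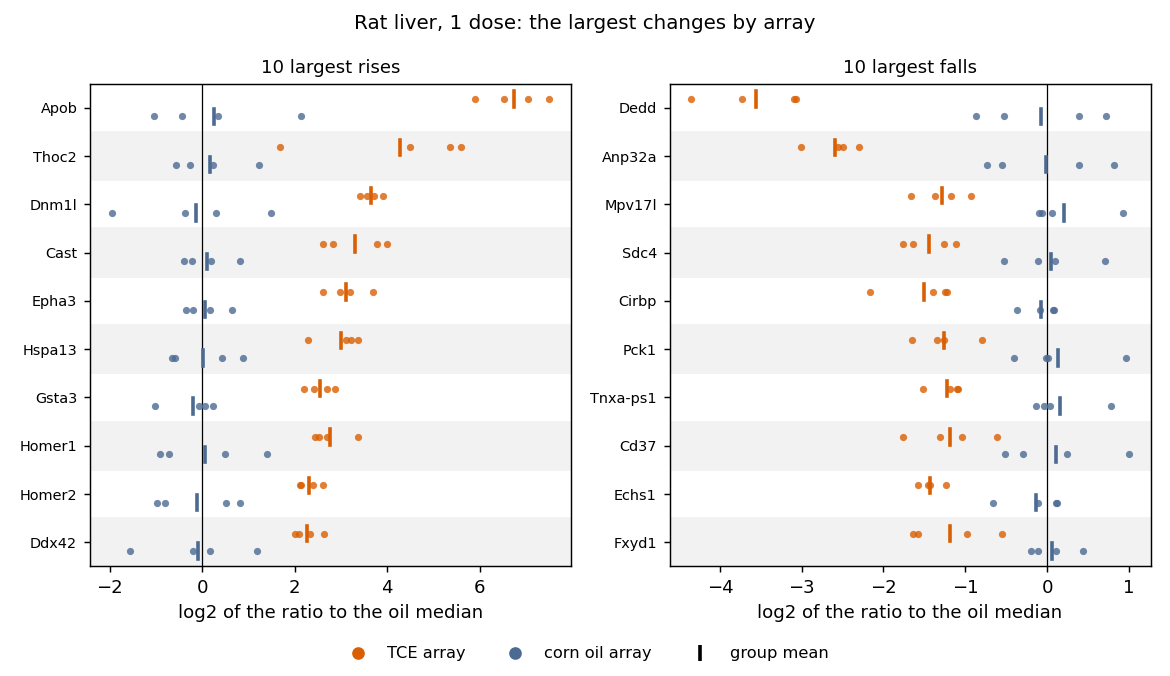
Log2 ratio to the oil median on each of the 4 TCE arrays (above) and 4 corn oil arrays (below) for the 10 largest rises and the 10 largest falls past the threshold, with group means as bars. The TCE arrays lie beyond every oil array in all 20, as the rule for naming them required, and the distance is widest for Apob and Dedd.

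The single-dose change was set beside the change after 14 daily doses, which has its own TCE and oil arrays. After 14 days 246 probe sets passed (2.81%), and 61 were shared with the 150 after 1 dose, 40.7% of the single-dose list and 24.8% of the 14-day list. All 61 moved the same way. The fit shares 1 estimate of the spread between both comparisons, so these overlaps are not independent of each other. The difference of the effects, tested directly, passed for 0 of 8740 probe sets (0%, limma), with 818 at an unadjusted p under 0.05.

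The 4 detoxification genes that rose after 1 dose were past the threshold after 14 days as well. Gsta3 changed by 2.29 after 1 dose and 3.68 after 14 days (adjusted p = 2.65e-06), Akr7a3 by 1.95 and 2.20, Aldh1a1 by 1.55 and 2.78 and Gclm by 1.37 and 1.68. Peroxisomal genes were past the threshold after 14 days: Acaa1b changed by 1.15 after 1 dose and 3.37 after 14 days (adjusted p = 3.48e-05), Pex11a by 0.79 and 1.88, and Ehhadh by -0.00 and 1.48 (adjusted p = 0.0186). Of the 20 largest single-dose changes, 19 had the same sign after 14 days and 6 passed there, namely Hspa13, Gsta3, Dedd, Anp32a, Cirbp and Pck1. Apob changed by 6.50 after 1 dose and 3.40 after 14 days (adjusted p = 0.0887), and Epha3 by 3.05 and 0.75. Mpv17l, at -1.49 after 1 dose, was at -0.12 after 14 days, and Echs1 was at -1.29 and -0.49.

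**Figure D5:**
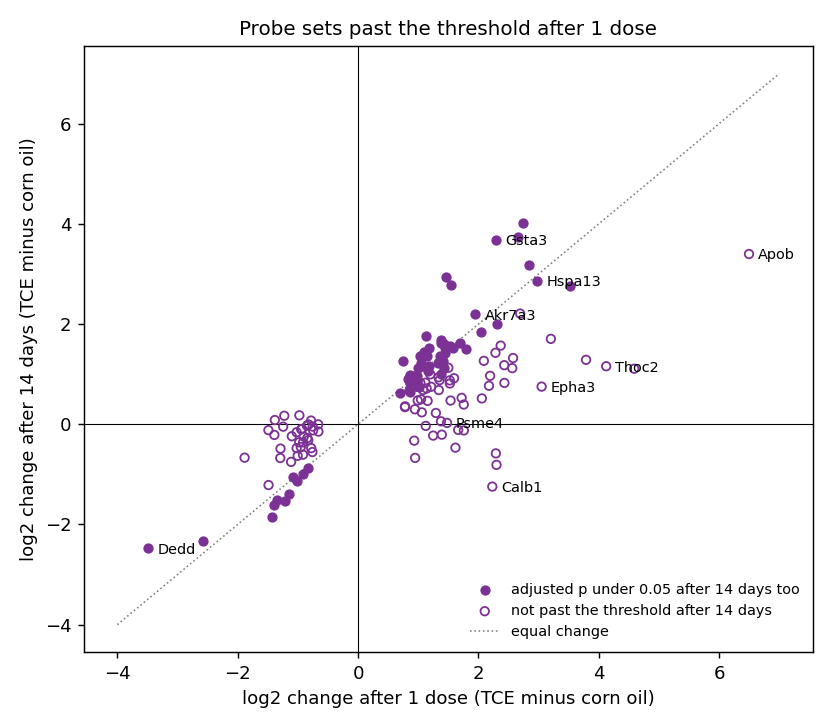
Log2 change after 14 daily doses against that after 1 dose for the 150 probe sets that passed after 1 dose, filled where they passed after 14 days as well (61). The dotted line marks equal changes; 135 of the 150 have the same sign at both times, and Apob, Thoc2 and Epha3 lie far below the line.

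The series asks how rat and mouse differ, and the single-dose effects were compared over 3056 genes with a symbol on both arrays, each species against its own oil arrays. The rat effect minus the mouse effect passed for 129 genes (4.22%), 83 of them higher in rat (2.72%) and 46 lower (1.51%). After centring the split turned to 37 higher and 110 lower in rat, and the count was 81 without rat oil array 2 and 82 without mouse TCE array 1. Mouse symbols were matched by name, and probe sets of the 2 arrays differ in position and sequence.

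Gsta3 had the lowest adjusted p of the species difference. Rat TCE arrays stood at 2.04 to 2.79, while mouse TCE arrays stood at -0.98 to -0.14, with effects of 2.29 in rat and -0.44 in mouse (difference 2.73 ± 0.34, adjusted p = 4.63e-05). Epha3 had an effect of 3.05 in rat and -0.31 in mouse (difference 3.36, adjusted p = 0.0113), and Syt6, a synaptotagmin of vesicle fusion, one of 1.76 and -1.01. Akap12, a kinase anchoring scaffold, and Prm2, a sperm protamine, differed by 2.95 and 3.05 through effects of -2.59 and -2.40 in mouse, with 0.35 and 0.65 in rat. Among the list genes named above, the effect was also higher in rat for Slc16a7 (1.33 in rat and -0.69 in mouse, adjusted p = 0.00335), Aldh1a1 (1.55 and 0.24, adjusted p = 0.0188) and Psma4 (0.70 and -0.01, adjusted p = 0.0339). It was lower in rat for Cd14 (-1.05 in rat and 0.54 in mouse, adjusted p = 0.00446), Slc37a4 (-1.02 and -0.15, adjusted p = 0.014), Glul (-1.21 and -0.01, adjusted p = 0.0179) and Gstt2 (-1.01 and 0.17, adjusted p = 0.0314). Of the largest single-dose changes, Cast (1.76 and 0.23, adjusted p = 0.0339) and Sdc4 (-0.14 and -1.65, adjusted p = 0.00446) also differed by their least noisy rat probe sets. The Sdc4 one had not passed in rat. A rat Sdc4 probe set that did pass changed by -1.49, close to the mouse effect, and was not used in this comparison. The Sdc4 difference therefore rests on the probe set chosen.

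The largest differences in the other direction came from rises in mouse. Psat1, which makes serine, had an effect of -0.14 in rat and 3.89 in mouse (difference -4.04 ± 0.67, adjusted p = 0.000643). Sprr1a, a cornified envelope protein, had one of 0.27 in rat and 3.36 in mouse, Tgfb1, the growth factor, one of -0.47 and 2.42, and Apoa4, an apolipoprotein, one of -0.65 and 2.06. Lrrc8a, a volume-regulated anion channel, was the exception among the 5, with -2.22 in rat and 0.14 in mouse (difference -2.35, adjusted p = 0.0336). The Acaa1b effects of 1.15 in rat and 0.9996 in mouse differed by 0.15 ± 0.33 (adjusted p = 0.847), and the Bckdha effects, -0.95 in rat and -1.05 in mouse, by 0.10 ± 0.29 (adjusted p = 0.884).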

How the data were processed

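RNA of rat and mouse livers was hybridised to Affymetrix arrays, and the submitters' processing notes name MAS5. The values deposited by the authors are ratios: in rat single-dose arrays the oil median of each complete probe set was 1.0000 to 1.0005, as found from the values, since neither this division nor any scaling is stated in the sources used here. Of 8740 probe sets left after 59 controls, 7006 had 1 symbol in the platform annotation, 308 several and 1426 none.

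Log2 of the ratio was fitted with limma 3.58.1 (lmFit, eBayes; R 4.3.3) with a mean per group over the 16 rat arrays, or all 32 for the species comparison. P-values were adjusted by Benjamini and Hochberg's method across every probe set or gene fitted, with a threshold of 0.05. No floor, filter or pseudocount was used. A gene in a list was represented by its probe set of smallest within-group SD. Array measures were compared by exact permutation tests.

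Named genes were the 10 largest rises and falls past the threshold with groups apart, the 5 largest species differences each way, and up to 4 called or 2 other members of each of 46 lists (36 pathway, 10 cell type). The members and lists were chosen with earlier results of these data known. Other list members named were chosen after their values were seen. On simulated data of this comparison (8732 probe sets) the fit recovered 2.99%, 28.4% and 78.8% of changes of 0.5, 1 and 2 log2 units. There were 6 false calls and none of the wrong sign. Whether these rates hold for the real arrays, with their shared shift and the arrays that stood apart, was not tested. No pair of arrays of a group was a duplicate (at most a fraction of 0.00205 of values identical). Samples with the same replicate number did not deviate together (correlations -0.118 to 0.0664), so they were not paired. No rat sequence was used here. Figures were drawn with matplotlib 3.10.9.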

Additional observations from a re-analysis of the deposited data

Results flagged for a closer look

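Single arrays stood apart from their group of 4 by the size of the gap to the next array. Chance gives such a gap in about 1 of 20 groups. Many groups were searched, across named genes, list medians and array measures, so several such gaps are expected by chance. The gene values here are listed only as found, with no claim that they are unusual. TCE array 4 had a beta-actin 3′ minus 5′ value of 0.9942 and an array median of 0.0552, the lowest among the TCE arrays. Oil array 3 had an exocrine pancreas median of 4.0764. Among TCE arrays, Acads was at -0.4941 on array 3 and Psma2 at 0.7031 on array 2. Among oil arrays, array 4 held the outlying value of Mpv17l (0.9230), Msmo1 (0.4049), St13 (-0.3364) and Ccnd2 (-0.5084), and array 1 that of Cyp2c12 (-2.4982).

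The rat effect differed from the mouse effect, by the test of the difference itself, by 3.3642 for Epha3, 3.0478 for Prm2, 2.9464 for Akap12, 2.7651 for Syt6 and 2.7287 for Gsta3. It differed by -4.0369 for Psat1, -3.0885 for Sprr1a, -2.8904 for Tgfb1, -2.7134 for Apoa4 and -2.3549 for Lrrc8a.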

How the results depend on the processing

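Against 150 probe sets in the single-dose comparison, 2 passed with quantile normalization (721 at an unadjusted p under 0.05), 184 after centring, 234 with log2(ratio + 1), 69 when only its 8 arrays were fitted, 417 with array weights, 256 with the Gapdh 3′ minus 5′ value as a covariate, 29 without arrays where that value was above 1, 385 without the noisiest 40% of probe sets, and 24 without oil array 3 and TCE array 4, an alternative chosen after seeing the data. Leaving out each of the 8 single-dose arrays in turn gave 22 to 128, and each of the 8 repeated-dose rat arrays 71 to 221. With the replicate number as a block, 8 passed, 6 of them among the 150. The direction of all 150 held in each of these settings, except that 117 of them were tested after the noise filter. Leaving out arrays cannot turn it where the groups lie apart, as in 145 of the 150. The difference from the repeated-dose effect, 0 as reported, was past the threshold for 6 probe sets with log2(ratio + 1), 5 without the noisiest ones, 1 with the replicate block, 1 without arrays of high Gapdh value and 0 to 1 without single arrays. For the species difference, 129 as reported, the counts were 7 with quantile normalization, 147 after centring, 263 with array weights, 55 with the replicate block, 36 without arrays of high Gapdh value, 95 when the probe sets of each gene were averaged and 81 to 181 without single arrays. The Gapdh difference of 0.30 ranged from -0.25 to 0.61 without single arrays and the beta-actin difference of 0.06 from -0.22 to 0.18; both were below 0 without TCE array 4 (-0.25 and -0.22), and the beta-actin one also without oil array 1 (-0.05). The array median difference ranged from 0.11 to 0.15, the trimmed mean from 0.18 to 0.22 and the spiked controls (-0.40 with all arrays) from -0.53 to -0.23; with 3 against 4 arrays the exact test cannot go below 0.0571. Causes were not tested, and signal over background is unknown for ratios.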

Other observations

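Genes outside the lists, chosen after their values were seen, were among the 15 probe sets that passed whichever of the 8 single-dose arrays was left out. Eif3m, a translation initiation subunit, rose by 1.37 ± 0.18 (limma adjusted p = 0.00373), and was past the threshold after 14 days as well (adjusted p = 0.00985). Psme4, a proteasome activator, rose by 1.48 ± 0.24 (adjusted p = 0.0129), against 0.03 after 14 days, and Bet1, a SNARE protein of traffic between endoplasmic reticulum and Golgi, by 1.52 ± 0.24 (adjusted p = 0.0121). Bbx, an HMG box protein, rose by 1.18 ± 0.20 and Aph1a, a gamma-secretase subunit, fell by 1.09 ± 0.17 (adjusted p = 0.0171 and 0.0125), and both were past the threshold after 14 days.

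Ccnd1, cyclin D1, rose by 1.43 ± 0.25 on 1 of its 5 probe sets (adjusted p = 0.0176), and the others changed by 0.17 to 0.83 without passing. Gda, guanine deaminase, rose by 1.37 and 2.30 on 2 of 3 probe sets, and Igfbp3, a carrier of insulin-like growth factors, by 2.04 ± 0.46 on 1 of 2. Mmp2 and Tagln, stellate cell markers, fell by 1.11 and 1.89 on 1 of 2 probe sets each (adjusted p = 0.0466 each), while the median of 23 stellate cell and fibroblast markers was -0.04. Calb1, the calcium-binding protein calbindin, changed by 2.23 ± 0.49 after 1 dose (adjusted p = 0.0415) and by -1.24 after 14 days (adjusted p = 0.186), and the difference of these effects did not pass the test.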
